A study of Mus musculus with 15 samples.

Results

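The baseline transcriptome described here is that of lymph node lymphatic endothelial cells (LECs) that received no VEGF-C. Its members are 5 of the 15 libraries of the series, labelled A to E and chosen by their label as unstimulated. The cells came from female C57Bl/6 mice. They were sorted as positive for podoplanin (Pdpn) and CD31 (Pecam1) and negative for CD45 (Ptprc). Axillary, brachial, cervical, inguinal and popliteal nodes were pooled, so a library represents no single node. Cells were grown in MEMα medium with fetal bovine serum, and the unstimulated cultures were kept for 72 h beside cultures that received VEGF-C, which are not analysed here. RNA was selected by its poly-A tail and sequenced with a stranded kit. The labels do not say whether the 5 libraries came from separate cultures, so the spread between them may be technical in part.

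LECs form the walls of lymphatic vessels and of the sinuses inside a lymph node. The transcription factor Prox1 sets lymphatic identity, VEGF receptor 3 (Flt4) receives the growth signal VEGF-C, and podoplanin and Lyve1 are surface proteins that part lymphatic from blood endothelium. In the node these cells conduct lymph, attract and retain leukocytes, present antigen and lie on a basement membrane of their own making.

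Levels are given as RPKM, the count divided by gene length and by a library total, so that genes can be compared with each other. Each value is a mean ± SD over the 5 libraries (n = 5), and values for single libraries are given in the order A to E. Spread is given as the coefficient of variation (CV), the SD as a percent of the mean. A mean of at least 1 RPKM, called detected below, was found for 12514 of 45706 genes (27.4%). Of these 10063 code for protein, out of 21519 protein-coding genes in all. The share among protein-coding genes is the background for the detected counts of the lists below. Total estimated counts were between 32097280 and 37132309 per library. The library total implied by the deposited RPKM was 1.86 to 1.90 times the summed counts, for a reason that is not given. The median CV of detected genes was 8.58%, where counting error alone gives a median of 3.00%. A CV over 30% was found in 554 detected genes (4.43%). Since 1 group has no contrast, no test between groups was made, and the statements below compare levels and spreads.

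Library E stood apart from the other 4. On the first principal component of log2(RPKM + 1), which held 54.0% of the variance, E scored -20.2 and the others lay between -1.33 and 9.54. Correlations with E were the lowest, at 0.975 to 0.981 against 0.985 to 0.993 among the other pairs (Pearson, across genes, which are not independent replicates). Of the protein-coding genes detected, 3558 were highest in E and 2946 lowest in E. Without E the number of genes with a CV over 30% was 281. Counts of varying genes are therefore given with and without E, and for genes in which E lay far from the others the CV without E or the values of all 5 libraries are shown.

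The most abundant transcripts came from the MHC class I light chain and the mitochondrial genome. B2m (ENSMUSG00000060802, chromosome 2, 122147686 to 122153083 on GRCm38), the light chain of every classical MHC class I molecule, was first at 1981 ± 218 RPKM. Its 5 values were 1778, 2159.7, 1983, 2233 and 1749 RPKM. The lowest of them, in E, was above the highest value of the next gene, the mitochondrially encoded cytochrome oxidase gene mt-Co3, at 1025 RPKM in D. The mitochondrial genes mt-Atp6 at 952 ± 112 RPKM and mt-Co1 at 845 ± 135 RPKM were also among the highest. The 100 most abundant genes together held 20.6% ± 1.13 of the summed RPKM.

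Among named nuclear genes the next after B2m were Bst2 at 648 ± 76.4 RPKM and Fth1 at 598 ± 86.0 RPKM. Bst2 encodes tetherin, an interferon-induced protein that holds budding virus at the cell surface, and Fth1 the heavy chain of the iron store ferritin. Fibronectin (Fn1) had 597 ± 68.8 RPKM, the inhibitor of cysteine proteases Ctla2a 538 ± 158 RPKM, the lysosomal protease Ctsd 515 ± 66.3 RPKM and the type IV collagen chain Col4a1 506 ± 39.9 RPKM. These genes followed each other closely. The ranges of Bst2, Fth1 and Fn1 overlapped, so their order is not fixed by 5 libraries.

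The other genes of the first 20 were of mixed function. Selenoprotein P (Sepp1) had 472 ± 163 RPKM, the collagen-binding protein Sparc 429 ± 49.96 RPKM, carboxypeptidase E (Cpe) 426 ± 47.9 RPKM, apolipoprotein E (Apoe) 416 ± 74.96 RPKM and Itm2b 414 ± 32.5 RPKM. The antiviral membrane protein Ifitm3 followed at 399 ± 52.5 RPKM, with the matricellular genes Thbs1 at 390.3 ± 108 RPKM and Cyr61 at 376 ± 51.3 RPKM. Ctla2b had 375 ± 108 RPKM, Plvap 369 ± 67.6 RPKM, the ribosomal protein gene Rpl8 367 ± 25.3 RPKM, Igfbp7 354 ± 21.8 RPKM and the actin-binding peptide gene Tmsb4x 348 ± 34.6 RPKM. Of the first 20, Sepp1 alone had a CV over 30%. It measured 518, 526, 529, 599 and 185 RPKM, so E was low and A to D were alike, with a CV of 6.96% without E. Of 232 genes chosen by the rule for named genes 26 have exons that overlap those of another gene with at least 1 RPKM, among them Sepp1 with Ccdc152, Igfbp7 with Polr2b, Col4a1 with Col4a2, Eng with Fpgs and Stab1 with Nt5dc2. Whether strand was used in counting is not stated, so reads of such pairs cannot be parted and their levels are uncertain.

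Genes with near-identical copies in the genome need care in this ranking. Gapdh (ENSMUSG00000057666, chromosome 6, 125161715 to 125166467), the glycolytic enzyme that is usually among the most abundant transcripts of many cells, measured 0.415, 0.496, 0.704, 0.530 and 0.652 RPKM and was below 1 RPKM in every library. The annotation (GENCODE M21) holds 165 pseudogene models that match it. The 90 bases shown first are bases 181 to 270 of a Gapdh open reading frame, with the matching stretch of 2 of these models, to show how far the copies agree. Capitals mark the bases that differ from the gene. Gm5430 (chromosome 17, 25326612 to 25327526) differs at 2 of the 90 bases, and Gm8055 (chromosome 10, 40011866 to 40012873) at 5. Sequences are those of GENCODE M21 transcripts on GRCm38, 5′ to 3′ along the transcript.

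Gapdh: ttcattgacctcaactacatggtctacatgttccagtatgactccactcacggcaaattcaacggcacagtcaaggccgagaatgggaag
Gm5430: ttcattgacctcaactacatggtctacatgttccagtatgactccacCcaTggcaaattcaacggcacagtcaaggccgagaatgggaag
Gm8055: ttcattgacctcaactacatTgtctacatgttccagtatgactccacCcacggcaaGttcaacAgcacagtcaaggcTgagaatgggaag

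Gm5430 and Gm8055 had the highest counts of the models matching Gapdh once those on 1 chromosome were left out. Both were themselves near 0, at 0.0759 and 0.0542 RPKM. The levels of the models left out and of the whole set are not given here. Pseudogene models as a whole held 19.2 to 19.5% of the summed RPKM and 4.74 to 4.90% of the counts. The sources used here do not say how reads matching more than 1 gene were handled, and the part of this step in the low level of Gapdh was not tested.

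The genes of cytosolic ribosomal proteins were examined after their values were seen. Their median level was lower in classes with more copies, with exceptions. All build the same particle, yet their levels ran from 0.228 RPKM for Rps12 to 367 RPKM for Rpl8, and 36 of 77 were below 1 RPKM. The 12 genes with 0 or 1 matching pseudogene model had a median of 55.8 RPKM. They ran from 0.258 to 367 RPKM, and 2 of them were below 1 RPKM, so few copies did not always go with a high level. The median was 7.38 RPKM for the 19 genes with 2 to 4 models, 0.833 for the 23 with 5 to 9 and 0.503 for the 23 with 10 or more. Spearman's rho between level and number of models was -0.57 across the 77 genes, which share their libraries and are no independent replicates. In the lists used below, 49 of 221 metabolic members have a matching model with at least 10 counts, against 2 of 108 lymphatic, 12 of 221 immune and 5 of 157 matrix members. Of the 4 programs the metabolic one thus has the most members with such copies. Adding the counts of matching models brought its detected members from 209 to 210. The part of copies in the levels was not tested.

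**Figure D1:**
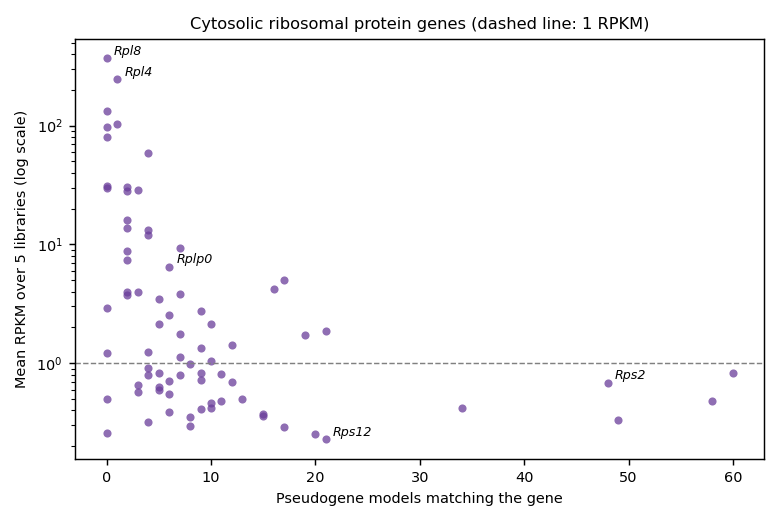
Mean RPKM over the 5 libraries (log axis) of each of 77 cytosolic ribosomal protein genes against the number of pseudogene models that match it. Rpl8, with no matching model, is highest, and the genes with 10 or more models have a median of 0.503 RPKM. Rpl39, also with no matching model, is at 0.258 RPKM.

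The levels of 6 defining markers were read, and all 6 were detected in all 5 libraries. Pdpn and Pecam1 encode proteins used in the sort, so their detection is no separate check of identity. Cdh5 (ENSMUSG00000031871, chromosome 8, 104101625 to 104144511), the VE-cadherin of endothelial junctions, had 291 ± 9.52 RPKM. Pecam1 (ENSMUSG00000020717, chromosome 11, 106654217 to 106750628), which encodes the CD31 used in the sort, had 137 ± 8.29 RPKM. Flt4 (ENSMUSG00000020357, chromosome 11, 49609263 to 49652739), the VEGF-C receptor, had 40.1 ± 5.70 RPKM. Levels of these 3 differed little between libraries, with CVs of 3.27%, 6.05% and 14.2%.

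The 3 markers that part lymphatic from blood endothelium had lower means and varied more, though Pdpn and Lyve1 exceeded Flt4 in E. Prox1 (ENSMUSG00000010175, chromosome 1, 190118035 to 190170714) measured 21.1, 20.9, 20.3, 9.94 and 6.79 RPKM. It was alike in A, B and C and lower in D and E, with a mean of 15.8 ± 6.89 RPKM and a CV of 43.6% that remained 30.03% without E. Pdpn (ENSMUSG00000028583, chromosome 4, 143267431 to 143299564) measured 25.5, 28.5, 24.9, 17.6 and 54.8 RPKM, with a mean of 30.3 ± 14.3 RPKM. Lyve1 (ENSMUSG00000030787, chromosome 7, 110850607 to 110863239), a hyaluronan receptor, measured 13.2, 22.03, 13.3, 15.6 and 39.0 RPKM, with a mean of 20.6 ± 10.9 RPKM. Both were highest in E, the library in which Prox1 was lowest. Their CVs of 47.3% and 52.8% were 19.3% and 25.8% without E. In bulk libraries fewer cells that express a gene and less RNA per cell cannot be told apart.

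**Figure D2:**
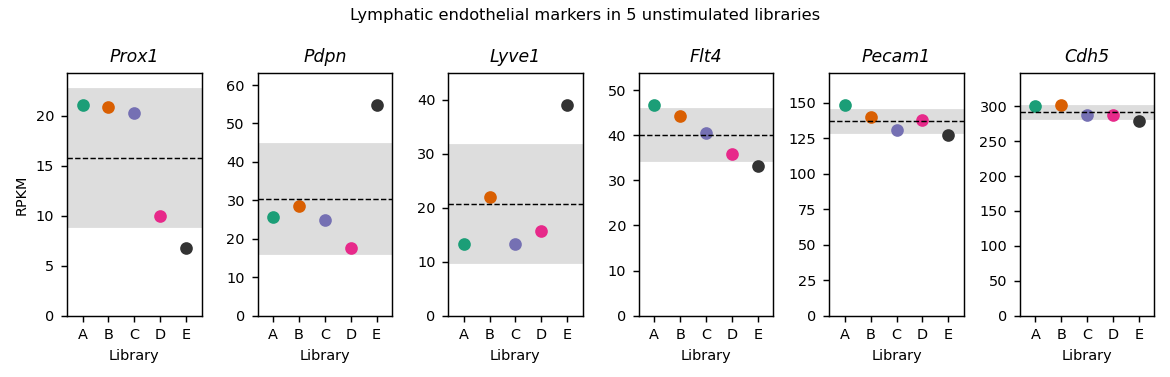
RPKM (linear axes from 0) of 6 lymphatic endothelial markers in libraries A to E, 1 point per library. The dashed line is the mean and the grey band 1 SD on each side; Cdh5 and Pecam1 lie close to their means, while E is highest for Pdpn and Lyve1 and lowest for Prox1.

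The wider lymphatic program held 108 genes in 6 lists, and 83 were detected. The background was 10063 of 21519 protein-coding genes, and 27.4% of all gene models, which include pseudogenes. The median level over all 108 members was 15.1 RPKM, where the median of all protein-coding genes was 0.638 RPKM. A CV over 30% was found in 13 of the 83, or 15.7%, where all detected genes gave 4.43%, and in 5 without E. Among those 5 were Prox1, Klf2, Ptx3 and Vegfa, of which Klf2 and Vegfa are named after their values were seen.

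Of 19 transcription factors of lymphatic and venous endothelium 16 were detected. Sox18, which switches on Prox1 in the embryo, had 69.4 ± 7.54 RPKM, and the endothelial ETS factors Erg and Fli1 had 58.8 ± 2.49 RPKM and 43.5 ± 4.74 RPKM. Gata2 and Foxc2, both needed for lymphatic valves, had 18.8 ± 2.59 RPKM and 9.36 ± 1.55 RPKM, and Nr2f2, a venous factor that acts with Prox1, 13.1 ± 2.06 RPKM. Prox1 was lower than Sox18 and Erg in all 5 libraries, and its range overlapped those of Nr2f2 and Gata2, which did not overlap each other.

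Among 21 receptors and surface markers 17 were detected. Thy1, a surface protein that mouse LECs share with fibroblasts, led at 331 ± 28.7 RPKM, followed by Cdh5 and by the scavenger receptor Stab1 at 181 ± 27.0 RPKM. Kdr, the second receptor for VEGF-C, had 18.4 ± 3.68 RPKM and its co-receptor Nrp2 20.3 ± 1.302 RPKM. Flt4 exceeded Kdr in all 5 libraries. The related scavenger receptor Stab2 measured 4.04, 3.98, 4.77, 4.10 and 0.744 RPKM. It was low in E and alike in A to D, and its CV of 45.0% was 8.70% without that library. Clca3a1, a surface marker of node LECs named here after its values were seen, had 90.8 ± 6.69 RPKM. The 4 members below 1 RPKM are likewise named after their values were seen. They were Mmrn1 at 0.00100 RPKM, Ackr2 at 0.00956 RPKM, Fgl2 at 0.333 RPKM and Rspo3 at 0.812 RPKM.

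Markers of the subsets of node LECs were mostly low, with 6 of 17 detected and a median of 0.402 RPKM. Markers of the subcapsular sinus floor, Madcam1 at 0.578 ± 0.210 RPKM and Itga2b at 2.58 ± 0.720 RPKM, and of its ceiling, Ackr4 at 0.402 ± 0.314 RPKM, were low. The medullary marker Marco had 0.402 ± 0.237 RPKM. Ptx3, a marker of deeper sinuses of the node, measured 1.97, 0.875, 1.299, 0.949 and 4.92 RPKM and was highest in E, with a CV of 84.3% and 39.2% without E. Cav1 at 254 ± 13.8 RPKM was the exception, a caveolar gene that most endothelial cells express. Gja4 and Msr1 followed at 4.66 ± 1.98 RPKM and 4.39 ± 1.64 RPKM, both lowest in E.

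Genes of endothelium in general were high. Of 21 such genes 20 were detected, 18 of them above 10 RPKM, and 2 of the 20 had a CV over 30% (10.0%, against 4.43% of all detected genes). The median CV of the list was 10.4%, above the 8.58% of all detected genes. Plvap, the diaphragm protein of endothelial fenestrae, measured 329, 367, 358, 308 and 482 RPKM, and the TGF-beta co-receptor Eng had 235 ± 13.1 RPKM. The catenins Ctnna1 and Ctnnb1, which anchor Cdh5 to actin, had 200.3 ± 20.8 RPKM and 190.4 ± 9.90 RPKM. The 2 were Cldn5 and Angpt2. The tight junction claudin Cldn5 measured 114, 84.0, 96.2, 58.9 and 34.1 RPKM, and the Tie2 ligand Angpt2 370.0, 278, 285, 175 and 110.4 RPKM. Both were highest in A and lowest in E, 3.34-fold and 3.35-fold apart. Their CVs of 40.6% and 41.8% were 26.2% and 28.9% without E. In each list the most variable gene is named among those with a mean of at least 5 RPKM. Among the junction genes this was Cdh2, at a CV of 23.2%. Vwf, a storage protein of blood endothelium, was low at 1.62 ± 0.363 RPKM.

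Of 12 ligands of the VEGF and angiopoietin families and related peptides 8 were detected. Adrenomedullin (Adm), a peptide that acts on lymphatic endothelium, led at 274 ± 51.7 RPKM, before Angpt2 at 244 ± 102 RPKM and apelin (Apln) at 70.0 ± 19.1 RPKM. The lymphatic growth factors themselves were low. Vegfc had 1.25 ± 0.257 RPKM and Figf, which encodes VEGF-D, 0.382 ± 0.137 RPKM. Both were below Flt4, their receptor, in every library.

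**Figure D3:**
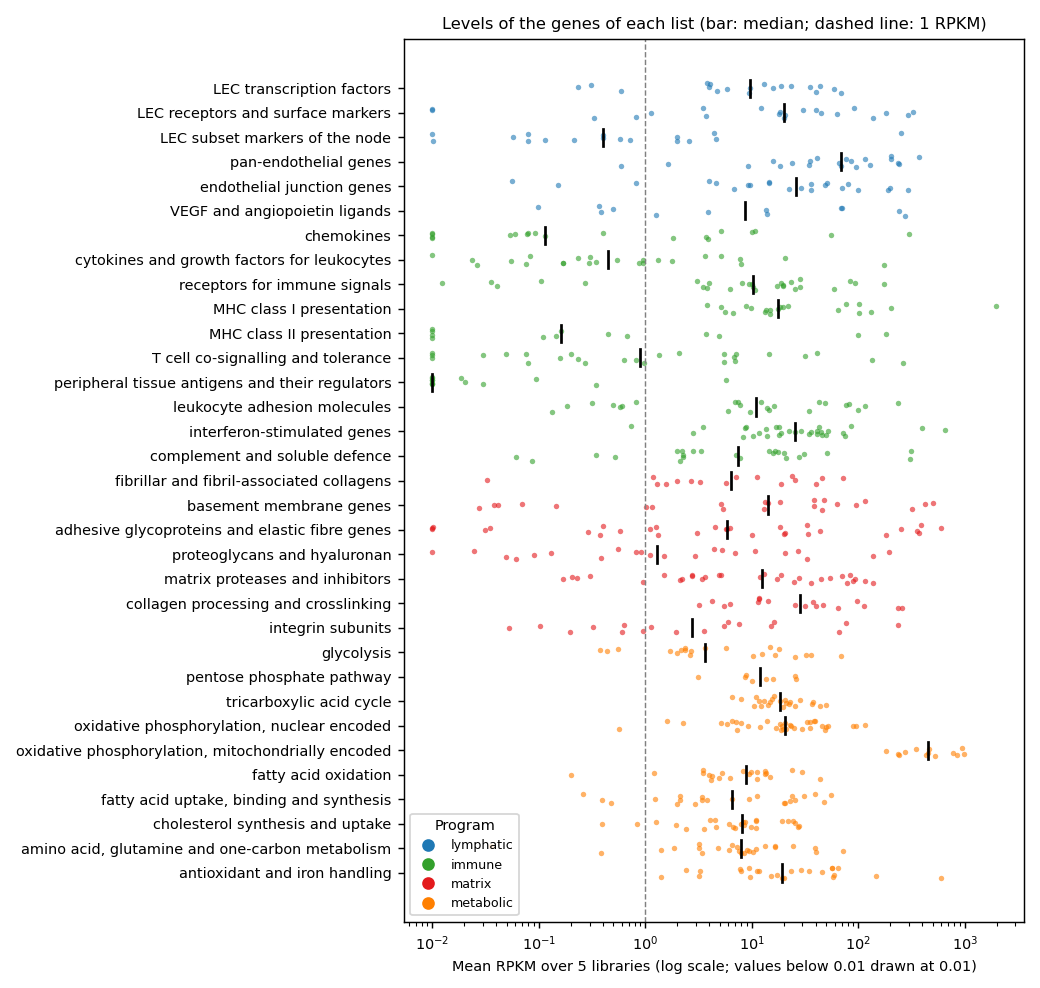
Mean RPKM over the 5 libraries (log axis) of the members of each list in the lymphatic, immune, matrix and metabolic programs, 1 point per gene, with the list's median as a bar. Mitochondrially encoded genes have the highest median, 449 RPKM, and peripheral tissue antigens the lowest.

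The immune program held 221 genes, of which 142 were detected, with a median over all members of 6.05 RPKM. A CV over 30% was found in 12 of the 142 (8.45%, against 4.43% of all detected genes), and in 8 without E. Genes of MHC class I presentation and interferon response were detected almost as a whole, while MHC class II chains, the chemokine ligands of CCR7 and peripheral tissue antigens were near 0.

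All 21 MHC class I genes were detected and none of the 21 had a CV over 30%, a count near what the 4.43% of all detected genes would give. Their median CV of 11.02% was above the 8.58% of all detected genes. The heavy chain genes H2-K1 and H2-D1, which have close relatives in the same locus, had 101 ± 12.9 RPKM and 77.7 ± 9.64 RPKM, far below the light chain B2m. The chaperones Pdia3 and Calr of the peptide-loading complex had 203 ± 22.9 RPKM and 131 ± 13.6 RPKM. H2-Q7, a non-classical heavy chain, varied most at 16.0, 16.7, 15.3, 15.5 and 10.5 RPKM, and was lowest in E.

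In the MHC class II list 4 of 13 genes were detected, and all 4 encode lysosomal enzymes that also act outside this pathway. They were Ctsl at 184 ± 25.7 RPKM, Lgmn at 99.3 ± 16.5 RPKM, Ifi30 at 4.90 ± 1.09 RPKM and, outside the rule for named genes, Ctss at 3.75 ± 1.19 RPKM. The class II chains H2-Aa and H2-Ab1 had 0.00930 ± 0.0136 RPKM and 0.110 ± 0.0721 RPKM, the invariant chain Cd74 0.451 ± 0.0418 RPKM, and Ciita, the master activator of the class II genes, 0.00646 ± 0.00656 RPKM. H2-Aa and H2-Ab1 were below 1 RPKM in all 5 libraries.

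Interferon-stimulated genes were detected in 30 of 31 cases, 25 of them above 10 RPKM. None had a CV over 30%, a count near what the 4.43% of all detected genes would give, and the median CV was 11.6%. Bst2 and Ifitm3 led, and the ubiquitin-like Isg15 had 85.0 ± 11.4 RPKM. The most variable, Ifit2, which binds viral RNA, had 18.1 ± 5.04 RPKM, from 10.5 in E to 22.7 in A. The summed RPKM of the list was 1911, 1918, 1654, 2072 and 1947 in A to E, lowest in C.

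Chemokines were few. Of 19 genes 8 were detected, with a median over all 19 of 0.115 RPKM. Ccl2, which attracts monocytes, led at 298 ± 29.3 RPKM. Its neighbour Ccl7 measured 46.0, 48.7, 39.5, 49.97 and 94.8 RPKM, high in E, with a CV of 10.1% without E. Cxcl12, the ligand of CXCR4, measured 8.71, 8.57, 8.25, 13.6 and 14.3 RPKM. The ligands of CCR7 that guide T cells and dendritic cells to the node were absent or nearly so. Ccl19 had 0 counts in every library, which allows up to 0.0499 to 0.0572 RPKM (3 counts per library, counting error only), and Ccl21a had 0.00210 ± 0.00193 RPKM. Ccl21a has near-identical copies in the mouse genome, so its value is uncertain. Ccl21b, a member of the list named after its values were seen, had 0.00149 ± 0.00333 RPKM.

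Of 24 cytokines and growth factors for leukocytes 8 were detected. Csf1, the growth factor of macrophages, was high and even at 175 ± 12.6 RPKM. Tgfb1 and Tgfb2 had 20.8 ± 3.42 RPKM and 7.91 ± 1.43 RPKM, and the lymphocyte survival factor Il7 1.77 ± 0.280 RPKM. Lymphotoxin beta (Ltb), a signal that shapes lymphoid tissue, measured 11.5, 8.97, 9.74, 5.68 and 2.71 RPKM, with E lowest and a CV of 45.5%, or 27.3% without E. Its receptor Ltbr was detected at 28.2 ± 1.57 RPKM, while Tnfsf11, which encodes RANKL, had 0.171 ± 0.184 RPKM. Among 27 receptors for immune signals 22 were detected and none had a CV over 30%. This count is near what the 4.43% of all detected genes would give. Tgfbr2 at 176 ± 27.6 RPKM, the shared cytokine receptor Il6st at 94.0 ± 15.4 RPKM and Tnfrsf1a at 83.0 ± 3.13 RPKM led this list. Il4ra was its most variable member, at 16.9, 16.1, 18.4, 13.9 and 28.1 RPKM.

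Genes that restrain or stimulate T cells were mixed, with 12 of 26 detected. The galectins Lgals1 and Lgals9 had 264 ± 75.3 RPKM and 135 ± 13.6 RPKM, with Lgals1 highest in E and its CV 28.6%, or 12.3% without E, and Cd200, a ligand that calms myeloid cells, 40.9 ± 3.67 RPKM. Cd274, which encodes PD-L1, was low at 2.09 ± 0.360 RPKM, and Nos2, which makes nitric oxide, had 0.2002 ± 0.0258 RPKM. The prostaglandin enzyme Ptgs2 varied most, at 5.80, 5.93, 7.38, 3.42 and 11.3 RPKM, a CV of 42.9%, or 29.1% without E. Of 13 genes for peripheral tissue antigens and their regulators the regulator Deaf1 alone was detected, at 5.70 ± 0.622 RPKM. Tyr, the melanocyte antigen tyrosinase, and Aire had 0.0187 ± 0.0177 RPKM and 0.00109 ± 0.00119 RPKM. The melanocyte gene Pmel had 0.343 ± 0.0817 RPKM.

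Genes of leukocyte adhesion, a list that holds integrin chains as well as their ligands, were detected in 17 of 24 cases. The integrin chain Itgb1 led at 236 ± 12.2 RPKM, and the integrin ligand Icam1 had 115 ± 7.47 RPKM and the junctional F11r 101 ± 6.86 RPKM. Vcam1, the ligand of integrin alpha 4, measured 10.7, 10.5, 11.4, 20.9 and 7.26 RPKM and was highest in D. Complement and other soluble defence genes were detected in 20 of 24 cases. Clusterin (Clu) at 406, 305, 385, 193 and 271 RPKM and the protein C receptor Procr at 308 ± 29.2 RPKM led, and the central complement gene C3 had 51.3 ± 8.07 RPKM. The lectin pathway protease Masp1 varied most of those above 5 RPKM, at a CV of 28.5%.

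Gene by gene, the matrix program was the most variable of the 4. It held 157 genes, of which 120 were detected with a median over all members of 6.31 RPKM. A CV over 30% was found in 40 of the 120 (33.3%, against 4.43% of all detected genes) and in 31 of 116 without E, so most of this spread lay among A to D. Of the 40, A and C were the 2 highest libraries in 21, and B and D the 2 lowest in 23.

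Of 23 basement membrane genes 18 were detected, and 3 of the 18 had a CV over 30% (16.7%, against 4.43% of all detected genes), with a median CV of 13.0%. Col4a1 and Col4a2, which form the type IV collagen network, had 506 ± 39.9 RPKM and 321 ± 23.2 RPKM. They are neighbours that overlap in the annotation, so reads of the overlap may be assigned to either. The laminin chain Lama4 of vascular basement membranes had 38.3 ± 4.67 RPKM and was lowest in E, at 30.2 RPKM. Col15a1 (chromosome 4, 47208161 to 47313167), a collagen of the outer basement membrane, varied most, before Smoc2 and Fbln1, which are named after their values were seen. Col15a1 measured 32.0, 10.2, 31.4, 6.30 and 12.6 RPKM, with a CV of 66.2%, and was high in A and C and low in B and D.

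Fibrillar and fibril-associated collagens varied far more. Of 16 genes 15 were detected and 11 of these had a CV over 30% (73.3%, against 4.43% of all detected genes), all 11 also without E. Their median CV was 54.0%. Col1a1 (ENSMUSG00000001506, chromosome 11, 94936224 to 94953042), a chain of type I collagen, measured 69.9, 25.7, 72.6, 19.5 and 40.4 RPKM. Col1a2 (ENSMUSG00000029661, chromosome 6, 4504814 to 4541544), its partner chain, measured 32.4, 10.9, 29.3, 5.78 and 16.1 RPKM. In both genes A and C were alike and high, E lay between and B and D were low. The type III chain Col3a1, at 7.77, 2.60, 7.35, 5.88 and 5.05 RPKM, was also high in A and C and low in B, but D lay above E.

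The type VI chains followed type I. Col6a1 measured 16.7, 5.34, 18.9, 6.15 and 8.88 RPKM and Col6a3 12.4, 3.88, 12.1, 3.14 and 4.36 RPKM. In 6 of the 11 collagens A and C were the 2 highest and B and D the 2 lowest libraries. The others had other orders. Col8a1, a short-chain collagen of vessel walls, was the highest of the list and measured 47.9, 58.2, 50.7, 109 and 97.1 RPKM, high in D and E. Col14a1, which coats collagen fibrils, measured 18.2, 18.4, 20.1, 50.6 and 20.96 RPKM, high in D alone. Col5a2 had 39.9 ± 11.1 RPKM. The summed RPKM of the list was 278, 179.7, 288, 279 and 289 in A to E. B was low and the other 4 lay close together, with D low in type I and VI chains and high in Col8a1 and Col14a1.

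Adhesive glycoproteins and elastic fibre genes were detected in 21 of 30 cases, and 9 had a CV over 30% (42.9%, against 4.43% of all detected genes). Fn1, Thbs1 and Cyr61 led. Thbs1, which encodes thrombospondin-1, measured 473, 395, 513, 322 and 248 RPKM and was lowest in E, as was Fn1 at 475 RPKM. Mgp, an inhibitor of calcification, measured 39.3, 10.5, 30.5, 9.56 and 12.9 RPKM, high in A and C and low in the others. Spp1, which encodes osteopontin, measured 31.1, 14.5, 31.8, 6.97 and 15.2 RPKM, high in A and C and lowest in D. Serpinf1, the anti-angiogenic factor PEDF, is in no list and measured 41.2, 12.6, 36.7, 6.53 and 20.9 RPKM, also lowest in D.

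Of 22 proteoglycan and hyaluronan genes 12 were detected. Decorin (Dcn), a small proteoglycan of fibroblast matrix, measured 239, 222, 266, 117 and 133 RPKM and was high in A, B and C. Biglycan (Bgn) had 138 ± 19.9 RPKM and Sdc4 32.7 ± 2.71 RPKM. Among 30 proteases and inhibitors 25 were detected. The plasminogen activator Plat measured 13.9, 13.7, 12.0, 18.4 and 28.9 RPKM, highest in E, with a CV of 39.4%, or 18.9% without E. Timp1, an inhibitor of metalloproteinases, measured 74.5, 47.0, 78.4, 41.6 and 107 RPKM. Timp2 and Timp3 were more even, at 84.2 ± 14.0 RPKM and 36.3 ± 4.92 RPKM. Ctsb and Adam9 had 115 ± 7.08 RPKM and 92.7 ± 12.1 RPKM.

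All 18 genes of collagen processing were detected. The collagen chaperone Serpinh1 had 259.5 ± 26.4 RPKM, the prolyl hydroxylase subunit P4hb 237 ± 26.4 RPKM and the crosslinking enzyme Tgm2 114 ± 26.4 RPKM. Pcolce, which speeds the maturation of fibrillar collagen, varied most at 8.60, 2.56, 8.06, 2.61 and 5.67 RPKM, high in A and C and low in B and D. Of 18 integrin subunits 11 were detected, led by Itgb1, Itga5 at 76.5 ± 4.56 RPKM and Itga3 at 66.7 ± 3.62 RPKM. Itgb5 measured 7.23, 3.27, 7.79, 3.60 and 5.32 RPKM, with B and D low.

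Markers of other cell types were read beside these matrix levels. Of 19 fibroblastic and mural markers 11 were detected. Thy1, Dcn and Tagln led, and Dcn and Thy1 stand in other lists too. Tagln measured 137, 107, 123, 211 and 129 RPKM and smooth muscle actin (Acta2) 99.0, 62.2, 91.7, 113 and 85.1 RPKM, both highest in D. The receptor Pdgfrb measured 9.38, 3.90, 9.78, 2.905 and 4.96 RPKM and Pdgfra 1.23, 0.643, 1.77, 0.383 and 1.06 RPKM, both high in A and C. A CV over 30% was found in 6 of the 11 detected (54.5%, against 4.43% of all detected genes). In 4 of these 6, A and C were highest and B and D lowest. The list summed to 852, 753, 796, 816 and 705 RPKM. The other 8 of the 19 markers were below 1 RPKM. Among these 8 were the fibroblast genes Lum and Dpt, named after their values were seen, at 0.0244 and 0.0191 RPKM. The part of such cells in the collagen levels was not tested.

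Lymphocyte markers and CD45 were near 0, while several myeloid markers were detected. Ptprc, the CD45 used to remove leukocytes in the sort, had 0.131 ± 0.0544 RPKM, and Cd3e 0.00420 ± 0.00259 RPKM and Itgam 0.114 ± 0.0695 RPKM. Of 19 markers 7 were detected, led by the lysozyme gene Lyz2 at 14.9, 9.24, 29.5, 19.0 and 16.3 RPKM, whose reads may be shared with Lyz1, and by the myeloid genes Tyrobp at 3.72, 1.96, 6.65, 4.17 and 3.22 RPKM and Cd68 at 3.64 ± 0.920 RPKM. The 4 with a CV over 30% (57.1% of the 7, against 4.43% of all detected genes) were all highest in C and lowest in B. The list summed to 33.2, 21.4, 57.8, 39.8 and 33.9 RPKM.

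Blood endothelial markers were detected in 13 of 18 cases. Plvap led, before Ephb4 at 46.5 ± 1.93 RPKM and Cd34 at 34.97 ± 3.62 RPKM. Plvap, Cd34 and Flt1 stand in the list of genes of endothelium in general too, so their levels cannot be read as blood endothelial alone. Flt1, the VEGF receptor 1, had 9.19 ± 1.55 RPKM. Ly6c1 measured 1.01, 0.981, 1.07, 1.19 and 2.98 RPKM and Ly6a 8.92, 9.95, 10.1, 14.3 and 23.9 RPKM. Both were highest in E, as was Plvap. The list summed to 502, 535, 524, 498 and 675 RPKM, highest in E. Without Plvap it summed to 173, 168, 166, 191 and 192 RPKM, with D and E alike, and of the 13 detected members 5 were highest and 5 lowest in E. In this library Pdpn and Lyve1 were also highest and Prox1 lowest, and the part of blood endothelial cells in these levels was not tested. Epithelial markers were low, with Epcam at 0.0189 ± 0.0114 RPKM and Cdh1 at 0.147 ± 0.0154 RPKM. Krt18 alone was above 10 RPKM, at 30.1 ± 8.20 RPKM, followed by Krt5 at 2.95 ± 0.247 RPKM and Krt19 at 2.57 ± 0.775 RPKM.

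Gene by gene, the metabolic program was the most even of the 4. Its summed RPKM was the least even, with a CV of 6.76% against 4.13% (lymphatic), 2.66% (immune) and 4.09% (matrix). It held 221 genes, of which 209 were detected with a median of 12.4 RPKM over all members. A CV over 30% was found in 5 of the 209 (2.39%, against 4.43% of all detected genes), in 4 without E and in 11 without A. Among all genes the share was 6.88% at 1 to 5 RPKM, 2.33% at 5 to 10 RPKM and 2.40% at 10 to 100 RPKM. Of the metabolic members 126 had at least 10 RPKM. Whether the low share of the program goes with the level of its genes was not tested. The 5 were Ldhb, Slc16a3, Cd36, Ass1 and Sod3, of which Ldhb, Slc16a3 and Sod3 are named after their values were seen. The median CV was 8.48%, near that of all detected genes.

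In glycolysis 18 of 21 genes were detected. The glucose transporter Slc2a1 led at 68.8 ± 4.17 RPKM, before the isomerase Gpi1 at 35.8 ± 2.53 RPKM. Pgk1, the first enzyme of the pathway to yield ATP, measured 31.02, 27.6, 27.6, 27.9 and 47.9 RPKM and was high in E, with a CV of 27.1%, or 5.83% without E. Pfkfb3, the regulator of glycolysis in sprouting endothelium, had 2.61 ± 0.207 RPKM. Ldha had 1.71 ± 0.380 RPKM with 8 matching pseudogene models and Pkm 16.5 ± 3.62 RPKM with 5, and like Gapdh both are uncertain and were chosen after their values were seen. Adding the counts of matching models brings Ldha to 2.39 and Pkm to 28.1 RPKM. All 8 genes of the pentose phosphate pathway were detected, led by Tkt at 25.8 ± 1.78 RPKM, Taldo1 at 25.6 ± 3.71 RPKM and Pgd at 15.8 ± 1.86 RPKM.

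All 23 genes of the tricarboxylic acid cycle were detected, 21 of them above 10 RPKM. None had a CV over 30%, a count near what the 4.43% of all detected genes would give. The succinate dehydrogenase subunits Sdhd and Sdha had 50.4 ± 3.54 RPKM and 43.9 ± 2.05 RPKM, and citrate synthase (Cs) 37.8 ± 2.35 RPKM. Mdh2 varied most, at a CV of 11.2%. Of 35 nuclear genes of oxidative phosphorylation 34 were detected. The ATP synthase subunits Atp5a1 and Atp5b had 117 ± 7.91 RPKM and 90.4 ± 7.67 RPKM, and the cytochrome oxidase subunit Cox4i1 96.0 ± 8.12 RPKM. Cox8a varied most, at 39.9, 45.0, 42.9, 53.0 and 61.9 RPKM.

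The 13 mitochondrially encoded genes lay far above the nuclear ones, with a median of 449 RPKM against 20.4 RPKM. Their summed RPKM was 5666, 7642, 7418, 7085 and 5793 in A to E, low in A and E. The nuclear genes summed to 1032, 949, 907, 1019 and 1078 RPKM and were highest in E and A. Within the mitochondrial set mt-Co3 was even, with a CV of 3.90%, while mt-Nd6, on the other strand, measured 155, 346, 335, 320.4 and 232 RPKM. Near-identical nuclear copies make the mitochondrial levels uncertain. The pseudogene model Gm28437 had 979.8 RPKM, and its ratio to mt-Co3 varied by 0.0560% (CV).

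Fatty acid oxidation was the list of lowest median CV, at 4.84%, with 21 of 22 genes detected. None had a CV over 30%, a count near what the 4.43% of all detected genes would give. The carnitine transferase Cpt1a, its gatekeeper, measured 13.0, 13.2, 13.1, 13.7 and 13.9 RPKM. Acyl-CoA synthetase 5 (Acsl5) had 43.5 ± 1.70 RPKM, Acadl 29.4 ± 0.665 RPKM and Etfb 23.8 ± 2.02 RPKM. Cpt1c varied most, at a CV of 17.8%. In fatty acid uptake and synthesis 20 of 23 genes were detected. The fatty acid carrier Fabp4 measured 60.7, 60.2, 46.8, 72.2 and 39.1 RPKM, and the uptake receptor Cd36 was low at 2.00 ± 0.694 RPKM. Scd2 and Acly had 48.2 ± 7.67 RPKM and 39.0 ± 2.77 RPKM, and Scd1 measured 10.9, 10.5, 10.7, 7.90 and 16.0 RPKM.

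Cholesterol synthesis and uptake were even too, with 24 of 26 genes detected and a median CV of 6.17%. None had a CV over 30%, a count near what the 4.43% of all detected genes would give. The sterol-responsive transcription factor Srebf2 led at 27.9 ± 1.28 RPKM. The cholesterol exporter Abca1 varied most, at 24.7, 28.0, 30.5, 22.5 and 17.2 RPKM, lowest in E. Of 25 genes of amino acid and one-carbon metabolism 23 were detected. The amino acid transporters Slc38a2 and Slc3a2 had 71.7 ± 7.92 RPKM and 39.6 ± 1.32 RPKM, and Glud1 40.4 ± 2.34 RPKM. Ass1, which makes the precursor of arginine, measured 7.04, 4.79, 6.97, 5.88 and 11.6 RPKM, a CV of 35.9%, or 17.2% without E. All 25 antioxidant and iron genes were detected. After Fth1 came heme oxygenase (Hmox1) at 148 ± 15.9 RPKM and superoxide dismutase (Sod1) at 65.1 ± 3.85 RPKM. The transferrin receptor Tfrc measured 6.96, 7.52, 7.27, 6.83 and 11.4 RPKM, high in E, with a CV of 24.0%, or 4.32% without E.

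Genes of the cell cycle had their highest summed level in E. Of 25 S phase genes 23 were detected and of 25 genes of G2 and mitosis 24. Mki67, the standard proliferation marker, had 9.26 ± 1.45 RPKM. The ribonucleotide reductase subunits Rrm1 and Rrm2 measured 19.4, 21.1, 17.4, 23.5 and 31.7 and 4.38, 5.40, 4.45, 6.32 and 12.0 RPKM. Cdk1 measured 9.40, 10.7, 8.35, 11.3 and 16.5 RPKM, Ccna2 8.60, 11.8, 9.02, 12.4 and 17.04 RPKM and Cdc20 6.70, 7.34, 5.77, 8.71 and 15.3 RPKM. In each of these 5 genes E was highest. The list of G2 and mitosis genes summed to 129, 153, 118, 158 and 226 RPKM, and E was the highest library for all 9 S, G2 and mitosis genes with a CV over 30%. The 9 made up 17.4% of the detected S phase genes and 20.8% of those of G2 and mitosis, against 4.43% of all detected genes. None of the 9 passed 30% without E. The helicase genes Mcm3 and Mcm2 had 15.5 ± 2.49 RPKM and 15.03 ± 2.17 RPKM, and Ccnb2 14.3 ± 3.72 RPKM.

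The summed RPKM of cell cycle inhibitors was 112, 126, 123, 126 and 175, also highest in E. Cdkn1a, which encodes p21, measured 44.5, 49.4, 49.0, 50.4 and 83.2 RPKM and Mdm2, the p53-induced regulator of p53, 17.9, 22.9, 20.4, 22.1 and 36.0 RPKM. Trp53 itself had 15.03 ± 0.861 RPKM, a CV of 5.72%. Cdkn2a, the senescence-linked locus of p16 and p19, had 4.02 ± 1.07 RPKM. Among heat shock and immediate early genes Hsp90ab1 led at 109.6 ± 8.34 RPKM, before Hsph1 at 42.8 ± 5.44 RPKM and Hspb1 at 38.3 ± 2.78 RPKM, and the AP-1 gene Junb measured 20.5, 24.9, 27.7, 32.9 and 44.8 RPKM.

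Across all named protein-coding genes with a mean of at least 10 RPKM, 79 of 3080 (2.56%) had a CV over 30%, and 35 of the 79 kept it without E. E was the highest library in 38 of the 79 and the lowest in 16. A and C were the 2 highest in 23, and B was the highest in none. The widest spread was that of Prl2c2 and Prl2c3, which encode proliferins, secreted proteins of the prolactin family. Prl2c2 measured 15.1, 6.41, 34.3, 4.40 and 9.63 RPKM and Prl2c3 14.8, 6.27, 33.6, 4.31 and 9.48 RPKM, both highest in C. Prl2c2 lies on chromosome 13, 12996125 to 13005383 and Prl2c3 on chromosome 13, 12790816 to 12800079. Their first 90 coding bases are shown because the pair cannot be read as separate measurements. The capital marks the only base of the 90 at which Prl2c3 differs.

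Prl2c2: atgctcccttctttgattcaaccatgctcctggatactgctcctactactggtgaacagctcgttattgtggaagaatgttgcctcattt
Prl2c3: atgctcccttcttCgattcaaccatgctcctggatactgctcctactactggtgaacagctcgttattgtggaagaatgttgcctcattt

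Their ratio varied by 0.243% (CV) over the 5 libraries, less than the 3.67% that counting error alone gives for Prl2c2. Ctla2a and Ctla2b, among the 20 most abundant genes, had a ratio that varied by 1.20% and are uncertain in the same way.

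After these came Col15a1, Mgp, Serpinf1, Col1a2, Col6a1 and Spp1, in all of which A and C were the 2 highest libraries. Col1a1, among the genes that followed, shared this order, and others did not. The growth factor Gdf15 measured 5.88, 9.93, 8.59, 20.2 and 22.1 RPKM and Fam198b 5.79, 7.50, 6.74, 12.7 and 17.6 RPKM, both high in D and E. Basp1 measured 7.62, 8.09, 9.85, 8.17 and 22.03 RPKM, high in E alone, and its CV was 55.1%, or 11.6% without E. For B, the genes that stood highest against the other 4 libraries were Itm2a at 16.6, 17.4, 11.7, 10.4 and 10.2 RPKM, Lyve1 and the imprinted gene Mest at 43.7, 62.7, 35.4, 44.5 and 84.3 RPKM. B was the highest of the 5 in Itm2a, and E in Lyve1 and Mest.

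**Figure D4:**
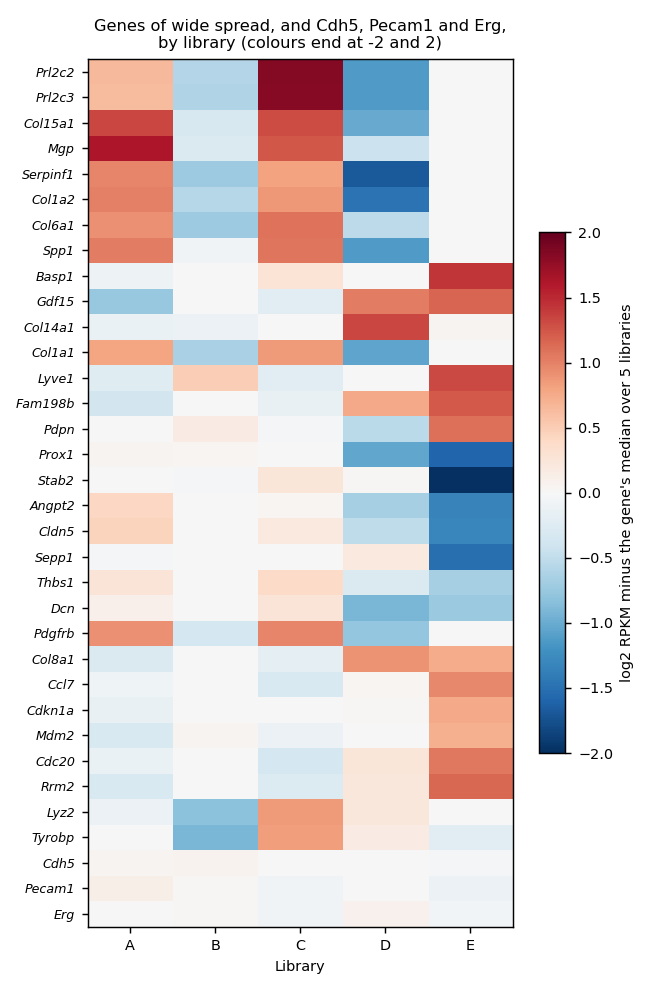
Each row is a gene, each column a library, and the colour is the gene's log2 RPKM minus its median over the 5 libraries (blue below it, red above it). Col15a1, Mgp, Serpinf1, Col1a2 and Col6a1 are red in A and C, E is blue for Prox1, Stab2, Angpt2, Cldn5 and Sepp1 and red for Lyve1, Pdpn, Cdc20 and Rrm2, and Cdh5, Pecam1 and Erg stay near 0.

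Rraga, a GTPase that senses amino acids for mTOR, had the smallest CV of the 3080 genes. It measured 27.6, 27.2, 27.2, 26.9 and 27.5 RPKM, a CV of 0.923%. Ubxn4, Tmem234, Dctn4, Polr2m, Fbxw11, Tor1aip2, Ate1, Alkbh5 and Ptov1 followed with CVs of 0.998% to 1.54%. Several of these values lie under the counting error expected of such genes, and with 3080 genes ranked the smallest CVs are in part a matter of selection.

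**Figure D5:**
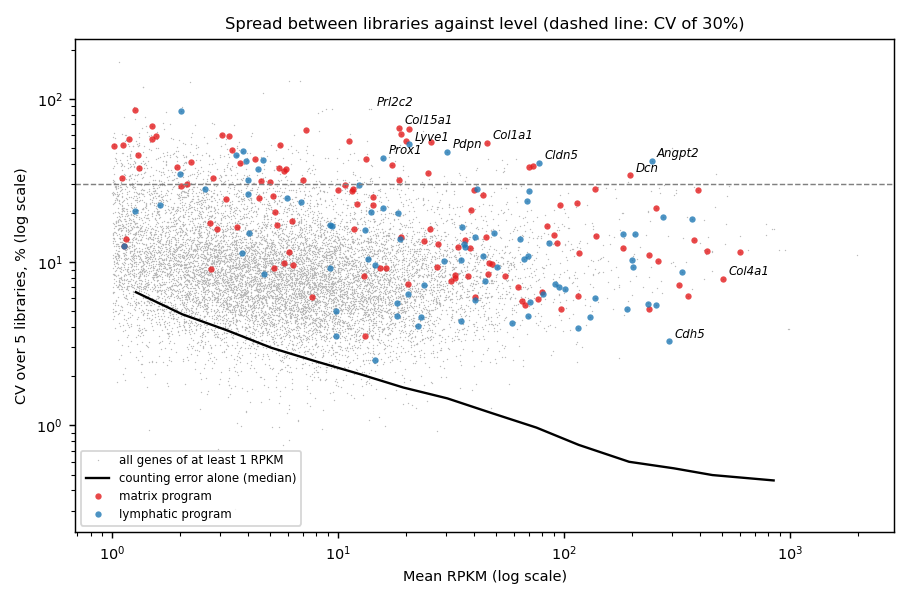
CV over the 5 libraries (log axis) against mean RPKM (log axis) for the 12514 detected genes (grey), with the matrix (red) and lymphatic (blue) programs and the median CV that counting error alone gives (black line). Type I collagen, Prox1, Lyve1 and Pdpn lie above the 30% line and Cdh5 far below it.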

How the data were processed

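RNA sequencing was measured in 15 libraries, of which the 5 unstimulated ones were used. The table holds estimated counts and RPKM per gene, both deposited by the authors. The counts are in part fractional, and were rounded to whole numbers for edgeR. The submitters' processing notes name FastQC, Bowtie2, limma and the builds GRCm38 and mm10. For the read counter, its strand setting, its annotation and its handling of reads matching more than 1 gene, the entry is the same: not given in the sources used here. Another 20 per-sample columns were not used.

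Mean, SD and CV were computed from the deposited RPKM with python 3.11.15, pandas 2.3.3 and numpy 2.4.6. The share of variance per component came from log2(RPKM + 1) of 10063 genes. Counting error was taken as Poisson, and floors are 3 counts per library. Common dispersion was estimated with edgeR 4.0.16 in R 4.3.3, with an intercept as the only term, and gave a biological CV of 14.6%, or 11.5% without E. Pseudogene models were assigned to genes with minimap2 2.31 on GENCODE M21 transcripts, at an identity of at least 90% over at least 100 bases. The scripts were tested on simulated data.

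The members and lists were chosen with earlier results of these data known. Of 828 gene names in 41 lists 826 matched the table. Genes are named by a rule. It takes the 20 named protein-coding genes of highest mean and, per list, the 3 highest members and the 1 of largest CV with at least 5 RPKM. It adds the defining markers, the 15 largest and 10 smallest CVs among genes of at least 10 RPKM, and for each library the 3 genes that stood highest against the median of the other 4. Other genes are named as chosen after their values were seen. Alternatives covered the thresholds, the scaling of libraries, counting variance, pseudogene counts and leaving out each library. Some genes that the rule names are not reported here.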

Additional observations from a re-analysis of the deposited data

Results flagged for a closer look

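In 22 of 220 genes checked and in 4 of 46 sums over lists and programs, 1 library lay far from the other 4. The measure was its gap to the nearest other library as a share of the whole range, set against Dixon's critical value for 5 samples, 0.71. Chance alone sets a library apart in about 1 in 20 such groups. Of all 12514 detected genes 1109 (8.86%) passed the same value, so the share among the genes checked is near that of all. Some of the genes checked were named for a large CV or for standing highest in 1 library, so for these the measure restates how they were chosen. In 19 of the 22 genes the library apart was E.

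E was low in 6 genes. Fn1 was at 475 RPKM (others 615 to 636), selenoprotein gene Sepp1 at 185 (518 to 599) and the laminin chain Lama4 at 30.2 (38.4 to 41.7). The scavenger receptor Stab2 was at 0.744 RPKM (3.98 to 4.77), the MHC gene H2-Q7 at 10.5 (15.3 to 16.7) and the complement gene C3 at 37.5 (52.3 to 57.1).

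E was high in 13 genes. Cdkn1a was at 83.2 RPKM (others 44.5 to 50.4), Mdm2 at 36.0 (17.9 to 22.9) and Rrm2 at 12.0 (4.38 to 6.32). Pgk1 was at 47.9 RPKM (27.6 to 31.02), Pkm at 22.8 (13.8 to 16.3), Ldhb at 6.30 (2.59 to 3.46) and the transferrin receptor Tfrc at 11.4 (6.83 to 7.52). The chaperones Pdia3 and P4hb were at 244 RPKM (192 to 196) and 282 (221 to 238). Ccl7 was at 94.8 RPKM (39.5 to 49.97), Ptx3 at 4.92 (0.875 to 1.97), Ly6c1 at 2.98 (0.981 to 1.19) and Basp1 at 22.03 (7.62 to 9.85).

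Other libraries stood apart in 3 genes. Thy1 was low in C at 281 RPKM (others 336 to 352). D was high in Flt1 at 11.9 RPKM (7.82 to 8.97) and in Col14a1 at 50.6 (18.2 to 20.96).

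Among the sums, fibrillar and fibril-associated collagens were low in B at 179.7 RPKM (others 277.5 to 289). The highest member of that list, the short-chain collagen Col8a1, measured 47.9, 58.2, 50.7, 109 and 97.1 RPKM in A to E. Whether B stands apart in the collagen sum without Col8a1 was not tested. E was high for antioxidant and iron genes at 1542 RPKM (1229 to 1296), for cell cycle inhibitors at 175 (112 to 126) and for blood endothelial markers at 675 (498 to 535). The blood endothelial sum was set by Plvap, and without it E at 192 RPKM was near D at 191.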

How the results depend on the processing

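Of 123 alternatives over 11 results, 96 left a count within 1.5 times the one reported, or the share within 1 SD, and 27 moved it further. Counts of genes detected stayed within that limit, with 14110 genes at 0.5 RPKM and 10496 at 2 RPKM. So did the counts of varying genes under equal RPKM sums (541 in all), TMM (518) and subtraction of counting variance (493). With a CV over 20% the varying genes numbered 1471 in all, 25 in the lymphatic, 35 in the immune, 61 in the matrix and 29 in the metabolic program. With a CV over 50% they numbered 114, 2, 1, 18 and 1. Without a filter on low values there were 17823 in all, 31 lymphatic, 68 immune and 68 matrix genes. With at least 5 RPKM there were 162 in all, then 5, 6, 20 and 1 in the 4 programs. Leaving out 1 library in turn gave 281 (without E) to 737 (without B) varying genes in all, 5 to 17 lymphatic, 8 to 18 immune, 31 to 45 matrix and 4 to 11 metabolic ones. The 100 most abundant genes held 16.9% of counts, and 18.8% of RPKM without mitochondrial genes. Of 5 of these alternatives, added after seeing the data, none moved its result beyond the limit, and the blood endothelial sum without Plvap was added likewise. The cause of these shifts was not tested beyond what each setting's construction gives. Depth limits genes near 1 RPKM, where counting error is largest. No paired analysis was possible because the 5 libraries form a single group and nothing is compared between groups.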
